A study of Mus musculus with 57 samples.

Results

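Genes of pericellular proteolysis were followed: the matrix metalloproteinases Mmp9 and Mmp14, their tissue inhibitors Timp1 and Timp2, the membrane sheddases Adam8, Adam10 and Adam17, the secreted protease Adamts1, the plasminogen activator Plau and its receptor Plaur. The 10 members were chosen by name, with earlier results of these data known. They were matched by symbol in both count tables, 10 of 50565 genes in one and 10 of 53278 in the other. RNA came from CD11b-positive cells of mouse brain, labelled microglia, of wild-type (WT) animals and of P2RY12-deficient littermates (KO). P2RY12 is a nucleotide receptor that is abundant on resting microglia. Whether the deficiency is confined to microglia, how the KO allele was made and the animals' age are not given in the sources used here.

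One experiment compared the sexes and is called the sex experiment below. Its WT group had 4 males and 4 females, and its KO group 5 of each. Its labels carry no treatment field, although the treatment protocol names LPS for all samples. Whether these animals received LPS cannot be told from the labels. The LPS experiment held 33 libraries of animals labelled LPS or ns, from 8 WT ns, 9 WT LPS, 8 KO ns and 8 KO LPS libraries. LPS is lipopolysaccharide, a bacterial product that provokes inflammation, given intraperitoneally (1 mg/kg). What ns stands for is not defined, and no sex is given there. The WT LPS libraries 8 and 9 differed by little more than sampling noise and were summed, so 32 samples were tested. Nothing states that the libraries of a group came from separate animals, so p-values measure the spread between these samples.

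Metalloproteinases cut matrix proteins and cell-surface receptors at the cell's edge. TIMPs block them, and TIMP2 also helps MMP14 to activate pro-MMP2. ADAM10 and ADAM17 release the outer parts of membrane proteins such as TREM2 and TNF. The urokinase encoded by Plau, held at the surface by its receptor, turns plasminogen into plasmin, a broad protease that also acts on latent metalloproteinases. In brain, microglia make TIMP2 and ADAM10 at rest, whereas MMP9 and ADAM8 are also stored or carried by neutrophils.

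Totals per library ran from 58539820 to 318509775 counts in the sex experiment and from 15912288 to 168443379 counts in the LPS experiment. Of counts from 1 to 20, 79.0% to 89.2% per library were even in the sex experiment, against 39.7% to 45.6% in the LPS experiment. The counts of the 2 experiments were thus not taken to be on one scale, and the totals were not compared as depths. The reason was not tested. P2ry12 lay at 3007 to 5928 CPM (counts scaled to each library's TMM-adjusted total) in WT and at 309.3 to 526.4 CPM in KO animals of the sex experiment, and the genotypes did not overlap in any of the 18 animals. The microglial marker Tmem119 was at 562.7 CPM or more in each library. In the LPS experiment the 4 WT libraries of library number 2 went against their treatment labels. The 2 of them labelled ns (WT ns 1 and WT ns 5) had Saa3, an acute-phase gene, at 1781 and 2491 CPM and P2ry12 at 481 and 927.4 CPM. The 2 labelled LPS (WT LPS 1 and WT LPS 6) had Saa3 at 1.592 and 3.209 CPM and P2ry12 at 4461 and 12150 CPM. In the other 28 samples Saa3 was at 64.35 CPM or less at ns and at 1024 CPM or more at LPS. These 4 libraries are shown apart below and had groups of their own in the model. That leaves 6 WT ns, 6 WT LPS, 8 KO ns and 8 KO LPS samples.

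A set of 6 libraries, of which WT ns 5 and WT LPS 6 are also among those 4, stood apart from the rest on the first principal component, which held 41% of the variance: WT ns 5, WT LPS 6, WT LPS 7, KO ns 5, KO ns 6 and KO LPS 5. All 6 came from the same one of the 2 sets into which the library names fall and had number 2 or 3. Across 15488 genes the difference between these 6 and the other samples ran against the GC content of the transcript, with a Spearman correlation of -0.62. That is a description across genes, which are not independent. Of the members, Mmp9 (55.2% GC) differed by -3.29 on the log2 scale in the 6 libraries, and the differences were -2.06 for Adam8 (54.9% GC), -1.95 for Mmp14 (54.3% GC) and -1.42 for Timp2 (53.7% GC). Adam10 (42.1% GC) was at 0.59 and Adam17 (45.1% GC) at 0.51. Plau, at 48.3% GC, was at 0.71. The GC-rich members were therefore the low ones in these libraries and the AT-rich members the high ones, and values with and without the 6 are given below. The part of base composition in the results was not tested.

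**Figure D1:**
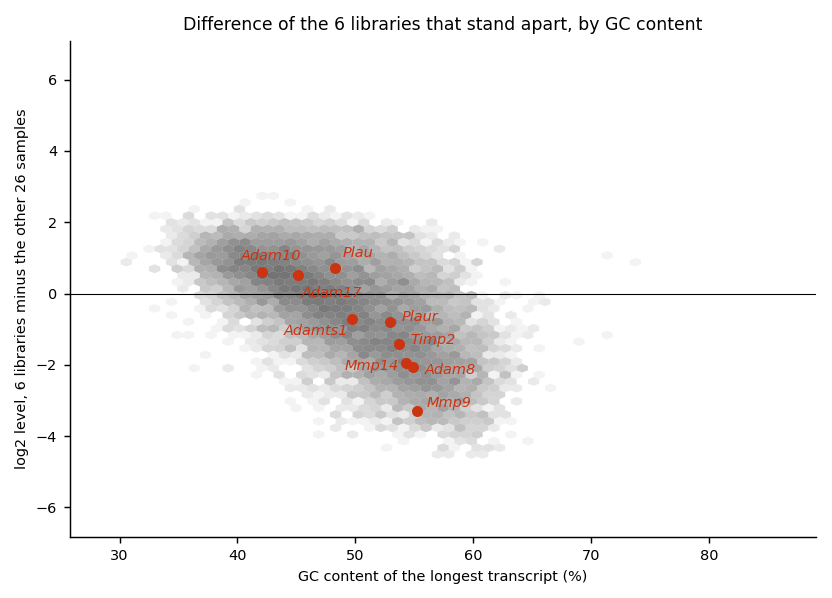
GC content of each gene's longest transcript (x, percent) against the log2 difference in level between the 6 libraries that stand apart and the other 26 samples (y). Grey hexagons are 15488 genes, darker where more lie (log shading), and red points are the 9 tested members, from Mmp9 at -3.29 to Plau at 0.71.

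The promoters of 4 called members are shown first, 3 that rose and 1 that fell with LPS in KO and that have a promoter entry, so that their letters can be set beside the values. Adam10, which also rose and has an entry, is not shown. They are the 250 bases before the RefSeq start (build GRCm38.p6), read 5′ to 3′ on the gene's strand. Of the 10 members, 8 matched a promoter entry by symbol, all but Mmp9 and Plau. Capitals mark GC boxes (GGGCGG), AP-1 sites (TGANTCA) and TATA boxes (TATAAA), each searched on both strands. Mmp14 (chr14:54431348-54431597, plus strand), Adamts1 (chr16:85803114-85803363, minus strand) and Plaur (chr7:24462233-24462482, plus strand) were higher with LPS in KO, and Timp2 (chr11:118355412-118355661, minus strand) was lower.
Mmp14: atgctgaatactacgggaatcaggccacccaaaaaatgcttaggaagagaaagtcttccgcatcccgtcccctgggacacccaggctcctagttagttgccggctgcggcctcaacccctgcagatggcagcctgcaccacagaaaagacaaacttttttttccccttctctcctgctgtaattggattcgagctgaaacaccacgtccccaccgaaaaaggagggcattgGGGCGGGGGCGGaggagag
Adamts1: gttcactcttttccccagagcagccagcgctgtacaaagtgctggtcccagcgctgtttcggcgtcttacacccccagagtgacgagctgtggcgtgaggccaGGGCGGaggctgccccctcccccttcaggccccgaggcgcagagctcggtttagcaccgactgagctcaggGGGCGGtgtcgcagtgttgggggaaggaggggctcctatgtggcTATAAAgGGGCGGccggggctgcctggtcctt
Plaur: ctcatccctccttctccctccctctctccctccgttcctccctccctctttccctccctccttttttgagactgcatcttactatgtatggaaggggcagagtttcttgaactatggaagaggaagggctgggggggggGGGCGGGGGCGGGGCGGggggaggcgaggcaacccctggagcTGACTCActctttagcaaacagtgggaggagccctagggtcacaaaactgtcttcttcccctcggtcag
Timp2: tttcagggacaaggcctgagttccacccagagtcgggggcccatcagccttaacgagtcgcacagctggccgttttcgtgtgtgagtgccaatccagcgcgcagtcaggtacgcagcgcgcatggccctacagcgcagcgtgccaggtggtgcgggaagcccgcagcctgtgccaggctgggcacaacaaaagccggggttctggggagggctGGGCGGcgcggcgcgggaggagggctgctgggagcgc
All 8 matched members held at least 1 GC box in this window, against 32.7% of 32851 promoter entries of the same length. Their windows held 52.8% to 74.0% GC, all above the entries' median of 52.4%, and entries of like GC content were not compared. In Mmp14 GC boxes began 19 and 13 bases before the start, and in Timp2 a single one began at 37 bases. Adamts1 had GC boxes at 147, 76 and 25 bases and was the only member with a TATA box, at 32 bases, a motif of 12.4% of entries. Plaur had 3 GC boxes, at 111, 105 and 100 bases, the last pair sharing a base, and was the only member with an AP-1 site, at 69 bases, a motif of 6.75% of entries. Timp2, which fell, and Mmp14, which rose, thus shared the GC box. None of the 8 held the interferon GAS letters (TTCNNNGAA), which 7.02% of entries hold. Each match is a description of letters only.

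In the LPS experiment, 6 of the 9 members that passed the filter on low counts were called between LPS and ns in KO cells. Mmp14, Adamts1, Plaur and Adam10 rose, and Plau and Timp2 fell (edgeR's quasi-likelihood test, adjusted p under 0.05). Of all 15857 genes tested, 28.3% were called, 13.1% higher and 15.2% lower. In WT cells 4 of 9 members were called, Mmp14 and Adam10 higher and Plau and Timp2 lower, against 30.3% of all genes, 14.8% higher and 15.5% lower. The members' median log2 fold change was 0.64 in KO and 0.38 in WT, beside -0.02 and -0.01 over all genes tested. With every library in the group of its label, 4 members were called in KO, against 22.3% of all genes. That fit called 0 members in WT by edgeR, where 0% of all genes were called and 3605 had an unadjusted p under 0.05. Without the 6 libraries that stand apart, 7 of 9 members were called in KO, against 55% of all genes, and 5 of 9 in WT, against 54.6%. Adam17 was the addition in both. Bulk RNA cannot tell fewer cells of a type from less RNA per cell.

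**Figure D2:**
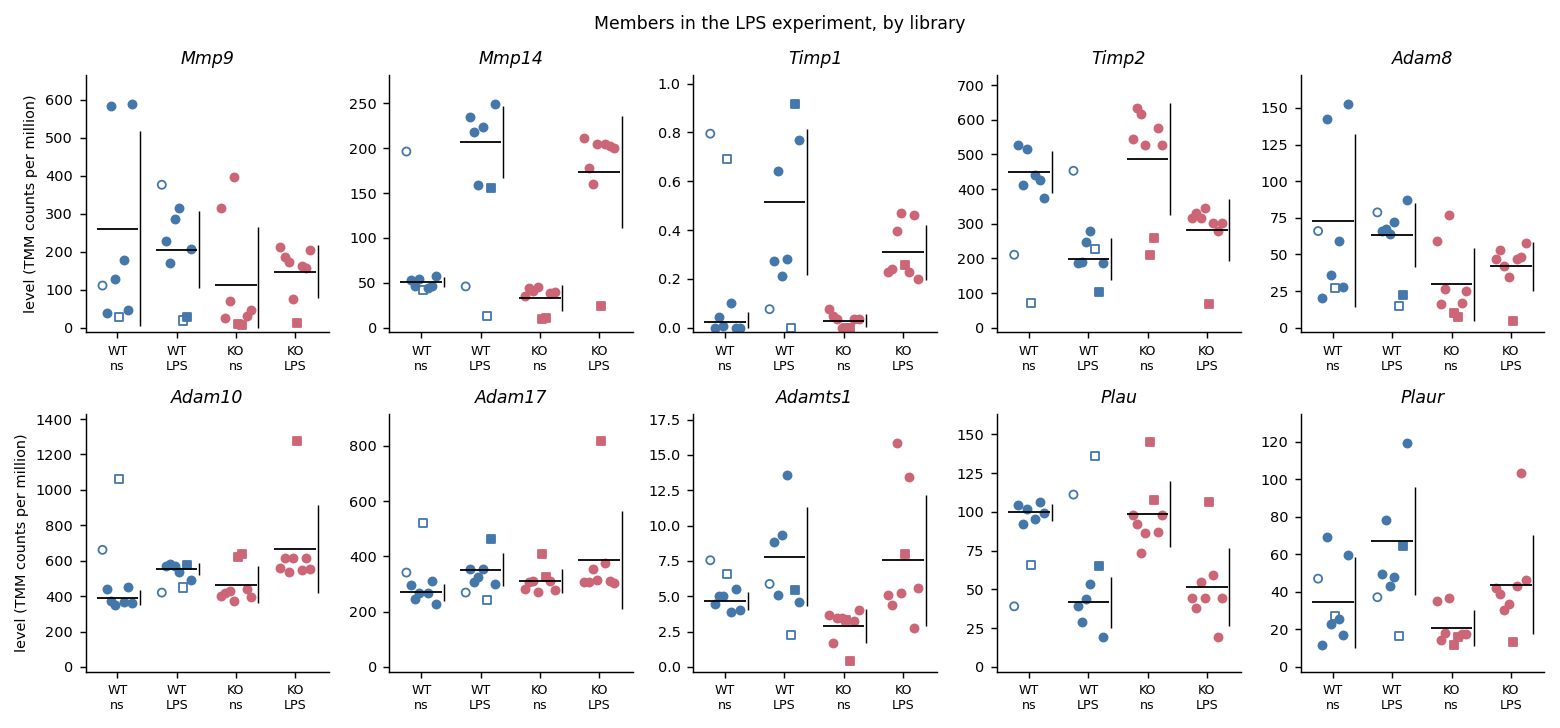
Level of the 10 members (y, TMM-scaled CPM, linear axis from 0) in each library of the LPS experiment, by labelled group (x), blue for WT and red for KO. Open symbols are the WT libraries of number 2, squares the 6 libraries that stand apart, horizontal lines the group means without number 2 WT libraries and vertical lines 1 SD (drawn down to 0 at most). Mmp14 lies between 155.9 and 249.1 CPM in the 6 WT LPS samples, above the 57.98 CPM of the highest WT ns sample.

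Mmp14, a membrane-anchored metalloproteinase on chromosome 14 (GRCm39, 54669055 to 54679913, plus strand), rose most of the members tested. WT ns samples held 44.56 to 57.98 CPM with a median of 49.995, and WT LPS samples 155.9 to 249.1 with a median of 220.9. KO ns samples held 9.705 to 45.42 CPM with a median of 39.3, and KO LPS samples 24.58 to 211.3 with a median of 201.3. WT groups did not overlap, and in KO the LPS library KO LPS 5, one of the 6 that stand apart, was the only one below the ns maximum. The log2 fold change was 2.43 ± 0.35 (SE, n = 8 and 8, 5.38-fold, adjusted p = 4.05e-06, edgeR) in KO and 2.04 ± 0.40 (n = 6 and 6, 4.12-fold, adjusted p = 0.000252) in WT. Without the 6 libraries, the values were 2.29 ± 0.10 and 2.14 ± 0.10, with adjusted p of 1.59e-14 and 1.19e-13 by edgeR. Among the WT libraries of number 2, WT ns 1 was at 196.2 and WT LPS 1 at 45.97 CPM, as Saa3 ordered them.

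Timp2, the inhibitor that MMP14 uses as a partner, fell. It lies on chromosome 11 (GRCm39, 118191887 to 118246237, minus strand), where its span overlaps Cep295nl on the same strand. WT ns samples held 373.3 to 525.6 CPM with a median of 433.4, and WT LPS samples 103.1 to 278.8 with a median of 188.0. KO ns samples held 209 to 632.7 CPM with a median of 535.7, and KO LPS samples 69 to 345 with a median of 308.6. WT groups did not overlap, nor did KO groups once the 6 libraries that stand apart were left out. The log2 fold change was -0.78 ± 0.25 (n = 8 and 8, adjusted p = 0.0181, edgeR) in KO and -1.17 ± 0.29 (n = 6 and 6, adjusted p = 0.00266) in WT. The values were, without the 6 libraries, -0.83 ± 0.10 in KO and -1.01 ± 0.11 in WT. In KO the call was lost with every library in the group of its label (edgeR adjusted p = 0.07), without the libraries of number 4 (-0.67 ± 0.32, adjusted p = 0.159), without those of number 5 (-0.76 ± 0.30, adjusted p = 0.0892) and in set 2 alone (-0.64 ± 0.48, adjusted p = 0.589). In WT it was lost as labelled (-0.68 ± 0.31, edgeR adjusted p = 0.193), without number 3 (-0.90 ± 0.34, adjusted p = 0.0778) and in set 2 alone (-1.07 ± 0.56, adjusted p = 0.308). Timp2 and Mmp14 moved in opposite directions in both genotypes.

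Timp1, a small secreted inhibitor on chromosome X (GRCm39, 20736405 to 20740976, plus strand), stayed under the count filter. KO ns libraries held 0 to 2 counts each and WT ns samples 0 to 2, against 5 to 11 counts in KO LPS and 5 to 43 in WT LPS samples, of which the highest is the summed pair. In CPM, KO LPS samples lay at 0.200 to 0.468 and KO ns at 0.077 or less, and WT LPS samples at 0.211 to 0.915 and WT ns at 0.102 or less, so neither pair of groups overlapped. The difference in mean CPM was 0.281 in KO (two-sided exact permutation test, p = 0.000155, adjusted p = 0.000311 over the 2 tests) and 0.490 in WT (p = 0.00216, adjusted p = 0.00216), each the smallest p that design allows. The library labelled WT ns 1 held 18 counts and WT ns 5 held 19, whereas WT LPS 1 held 2 and WT LPS 6 held 0. Timp1 is among the rarest members, so a handful of reads carries these levels. Without the filter, edgeR gave 3.27 ± 0.59 (adjusted p = 0.000111) in KO and 4.58 ± 0.69 (adjusted p = 9.59e-06) in WT, where 11.6% and 12.2% of all genes were called.

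The urokinase system split. Plau, on chromosome 14 (GRCm39, 20886730 to 20893456, plus strand), held 91.98 to 106.6 CPM in WT ns samples with a median of 100.6, and 19.47 to 65.14 in WT LPS samples with a median of 41.6. KO ns samples held 73.29 to 144.9 CPM with a median of 95.4, and KO LPS samples 19.3 to 106.2 with a median of 44.8. WT groups did not overlap, and the highest KO LPS sample was again KO LPS 5. The log2 fold change was -0.94 ± 0.23 (n = 8 and 8, adjusted p = 0.00232, edgeR) in KO and -1.28 ± 0.27 (n = 6 and 6, adjusted p = 0.000529) in WT. With the 6 libraries left out, the WT value was -1.40 ± 0.23 and the KO call held (adjusted p = 0.000253, edgeR). In KO the call was lost in 3 of 17 alternatives, without the libraries of number 3 (edgeR adjusted p = 0.0587), without those of number 5 (0.0693) and in set 2 alone (0.392). In WT it was lost as labelled and in set 2 alone, and the values ran from -1.58 to -0.51.

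Plaur, the receptor that holds urokinase on the cell surface (chromosome 7, GRCm39, 24161857 to 24175393, plus strand), went the other way. WT ns samples held 11.73 to 69.3 CPM with a median of 24.3, and WT LPS samples 43.15 to 119.3 with a median of 56.9. KO ns samples held 11.65 to 36.62 CPM with a median of 17.6, and KO LPS samples 13.53 to 103.4 with a median of 40.5. The groups overlapped in both genotypes. The log2 fold change was 1.09 ± 0.37 (n = 8 and 8, adjusted p = 0.0286, edgeR) in KO and 0.97 ± 0.43 (n = 6 and 6, adjusted p = 0.0844) in WT. In WT it was 1.02 ± 0.43 with the 6 libraries left out, and the KO adjusted p was then 0.0465 (edgeR). In WT it was called in 4 of 17 alternatives: by DESeq2 (1.00 ± 0.42, adjusted p = 0.0466), with WT LPS 8 and 9 kept apart (1.12 ± 0.42, edgeR adjusted p = 0.0416), with the replicate block besides (1.23 ± 0.37, adjusted p = 0.0107), and without WT ns 3 and WT ns 8 (1.79 ± 0.44, adjusted p = 0.00379). Leaving out those 2 libraries, which had the highest neutrophil and monocyte marker sums at WT ns, was chosen after the values were seen. The highest Plaur and the lowest Plau fell in the same samples, both of set 2. They were the summed WT LPS pair (119.3 and 19.47 CPM) and KO LPS 7 (103.4 and 19.3 CPM). KO LPS 7 and WT LPS 8 have library number 4, whereas WT LPS 9 has a different number. The summed pair was treated as number 4. Leaving out the libraries of number 4 in every group moved Plaur in KO to 0.75 ± 0.38 (adjusted p = 0.191, edgeR), and its KO call was also lost without number 3 (adjusted p = 0.0861) and within either set alone (0.50 ± 0.49 in set 1).

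Adam10, a constitutive sheddase, rose slightly (chromosome 9, GRCm39, 70586133 to 70687511, plus strand). WT ns samples held 350.6 to 453.5 CPM with a median of 369.6, and WT LPS samples 492.8 to 581.5 with a median of 568.9. KO ns samples held 374.1 to 638.1 CPM with a median of 423.1, and KO LPS samples 537.5 to 1277 with a median of 588.7. WT groups did not overlap, and the KO overlap came from KO ns 5 and KO ns 6, 2 of the 6 that stand apart. The log2 fold change was 0.52 ± 0.16 (n = 8 and 8, 1.43-fold, adjusted p = 0.0119, edgeR) in KO and 0.51 ± 0.18 (n = 6 and 6, adjusted p = 0.0327) in WT. Without the 6 libraries, edgeR put Adam10 at 0.53 ± 0.07 in KO and 0.52 ± 0.08 in WT. Without the libraries of number 5 neither call held (0.55 ± 0.22 and 0.45 ± 0.25, edgeR adjusted p = 0.0883 and 0.241). WT LPS 9, though of number 5, stayed in that fit as part of the summed pair. The call held in 12 of 17 alternatives in KO and in 10 of 17 in WT, with values from 0.37 to 0.70 and from 0.06 to 0.59.

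Adam17, the sheddase that frees TNF, was not called, at 0.30 ± 0.16 in KO (adjusted p = 0.191, edgeR) and 0.38 ± 0.19 in WT (adjusted p = 0.137). Its samples held 229.3 to 408.2 CPM at ns and 300.6 to 817.4 at LPS, the highest again in KO LPS 5. Without the 6 libraries the values were 0.18 ± 0.08 (adjusted p = 0.0468, edgeR) in KO and 0.32 ± 0.08 (adjusted p = 0.002) in WT. In KO that was the only 1 of 17 alternatives with a call. In WT Adam17 was called in 3 of 17, also without the libraries of number 2 in every group and in set 1 alone. In this table the spans of Adam17 and Iah1, on the other strand, overlap, and the counting program's strand setting is not given in the sources used here.

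Adamts1, a secreted protease that cleaves proteoglycans (chromosome 16, GRCm39, 85590715 to 85600001, minus strand), was scarce. KO ns samples held 0.4553 to 3.998 CPM with a median of 3.41, and KO LPS samples 2.764 to 15.81 with a median of 5.42. WT ns samples held 3.912 to 5.55 CPM with a median of 4.75, and WT LPS samples 4.563 to 13.6 with a median of 7.13. The groups overlapped in both genotypes. The log2 fold change was 1.36 ± 0.35 (n = 8 and 8, adjusted p = 0.00361, edgeR) in KO and 0.74 ± 0.40 (n = 6 and 6, adjusted p = 0.159) in WT. They were, without the 6 libraries, 1.22 ± 0.35 and 0.86 ± 0.36. The difference between the genotypes in this response was 0.62 ± 0.52 (adjusted p = 0.799, edgeR), so the call in KO alone does not show a difference. In the sex experiment it held 77.41 to 313.1 CPM, and no model was fitted across the tables, whose shares of even counts differ.

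Mmp9 and Adam8, a gelatinase and a sheddase of myeloid cells, were the most variable members at ns and were not called. Mmp9, on chromosome 2 (GRCm39, 164782246 to 164797770, plus strand), held 38.47 to 587.5 CPM in WT ns and 28.07 to 315.9 in WT LPS samples, and 7.057 to 396.8 in KO ns and 11.65 to 212.4 in KO LPS samples. Adam8, on chromosome 7 (GRCm39, 139558845 to 139573016, minus strand), held 20.29 to 152.6 CPM in WT ns and 22.23 to 87.49 in WT LPS samples, and 6.981 to 76.59 in KO ns and 4.395 to 57.74 in KO LPS samples. All these groups overlapped. The LPS log2 fold changes of Mmp9 were 0.86 ± 0.74 in KO (adjusted p = 0.445, edgeR) and -0.42 ± 0.81 in WT (adjusted p = 0.737). Those of Adam8 were 0.64 ± 0.49 in KO (adjusted p = 0.374, edgeR) and -0.25 ± 0.55 in WT (adjusted p = 0.773). When the 6 libraries were left out, Mmp9 was at 0.32 ± 0.69 in KO and -0.09 ± 0.72 in WT, and Adam8 at 0.40 ± 0.44 and 0.01 ± 0.47.

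Per kilobase of exon (GENCODE M21), Adam10 and Timp2 led the members at ns. In WT ns the medians were 111 CPM per kb for Timp2, 75.2 for Adam10, 43.2 for Mmp9, 42.5 for Plau and 37.3 for Adam17. Adam8, Plaur and Mmp14 followed at 10.2, 9.28 and 8.39, with Adamts1 at 0.896 and Timp1 at 0.00345. In WT LPS the order opened with Adam10 at 116 CPM per kb, followed by Mmp9 at 61.5, Timp2 at 48.3, Adam17 at 47.5 and Mmp14 at 37.1. Mmp9, Plau and Adam17 lay closer to one another at ns than their spread over samples.

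**Figure D3:**
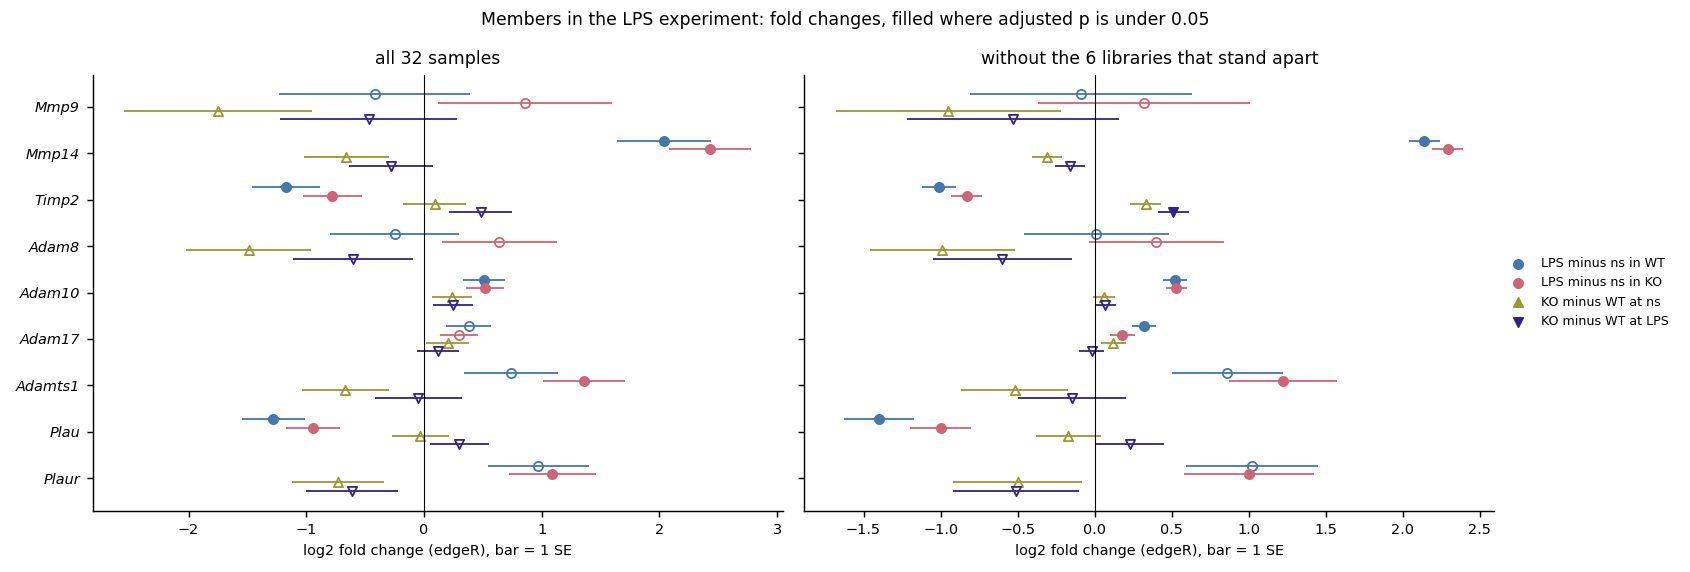
Log2 fold change (x, edgeR, bars 1 SE) of the 9 tested members (y) for LPS minus ns in each genotype and for KO minus WT at ns and at LPS, with all 32 samples at left and without the 6 libraries that stand apart at right. Filled symbols have an adjusted p under 0.05: Mmp14 is filled at 2.43 in KO and 2.04 in WT, and Timp2 KO minus WT at LPS is filled only at right, at 0.51.

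Of the other genes of these families, listed with earlier results of these data known, more metalloproteinases fell than rose. Of 21 other Mmp genes 10 were tested. Of these 1 rose and 5 fell in KO, with a median of -2.01 against -0.02 over all genes, and in WT 1 rose and 6 fell. Over all genes tested, 13.1% rose and 15.2% fell in KO, and 14.8% rose and 15.5% fell in WT. Mmp19, which degrades basement membrane proteins, rose by 3.08 ± 0.34 in KO and 2.98 ± 0.39 in WT. Mmp12, the macrophage elastase, was at -4.33 ± 0.66 and -2.81 ± 0.71, and Mmp28 at -3.89 ± 0.38 and -4.80 ± 0.46, in KO and WT in that order. Mmp11, Mmp13 and Mmp23 made up the rest in KO, joined in WT by Mmp15. Of 10 other Adam genes 6 were tested. Adam9, a further sheddase, rose by 1.75 ± 0.15 in KO and 1.82 ± 0.17 in WT, and Adam22, a neuronal adhesion receptor without protease activity, was at -0.94 ± 0.17 and -0.74 ± 0.19. Of 18 other Adamts genes 7 were tested and 2 fell in each genotype, Adamts16 (-3.78 ± 0.59 in KO) and Adamts6 (-0.87 ± 0.20 in KO). That share called lay near those of all genes, 28.3% in KO and 30.3% in WT. All values named here are edgeR estimates with an adjusted p under 0.05 unless one is given.

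Among 15 regulators of metalloproteinases 11 were tested, and 1 rose in KO and 2 fell in WT, Reck (-1.61 ± 0.28) and Rhbdf1 (-1.25 ± 0.44). Rhbdf2, the iRhom that carries ADAM17 to the surface, rose by 1.64 ± 0.40 in KO (adjusted p = 0.00222, edgeR) and was at 1.16 ± 0.45 in WT (adjusted p = 0.0524). Of 12 partners of the plasminogen system 10 were tested, with 1 higher and 2 lower in KO and 2 higher and 2 lower in WT. Serpine2, an inhibitor of urokinase, was at -1.20 ± 0.17 in KO and -1.12 ± 0.20 in WT. Plgrkt, a plasminogen receptor, was at -0.41 ± 0.12 and -0.57 ± 0.14. Plat, the tissue-type activator, rose in WT, by 1.74 ± 0.59. Of 14 shed substrates, all tested, 3 rose and 1 fell in each genotype. The shares called among the shed substrates and the plasminogen partners lay near those of all genes (28.3% in KO and 30.3% in WT). Among the regulators the shares lay below them. The decoy receptor Il1r2 rose by 5.34 ± 0.59 in KO and Tnf by 4.20 ± 0.37, and Trem2 was at -1.49 ± 0.21. App was the third that rose, by 1.11 ± 0.24. Mmp11, Mmp13, Mmp15, Mmp23, Reck, Rhbdf1, Plat and App were named after their values were seen. None of these list genes was called in a contrast of KO with WT or in an interaction with all samples in the fit (edgeR). Between the sexes Adamts17 was the single one called, 0.63 ± 0.11 higher in females (adjusted p = 0.0054).

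No member was called between KO and WT at ns or at LPS, where 0.0883% and 0.0946% of all genes were, nor in the genotype-by-LPS interaction, where 0% were and 756 genes had an unadjusted p under 0.05. The largest differences at ns were in Mmp9 (-1.75 ± 0.80, 95% interval -3.32 to -0.18, adjusted p = 0.543, edgeR) and Adam8 (-1.49 ± 0.53, interval -2.53 to -0.46, adjusted p = 0.43), both with lower estimates in KO. Without the 6 libraries they were -0.95 ± 0.73 and -0.99 ± 0.47, in set 1 alone -0.31 ± 0.95 and -0.57 ± 0.63, and in set 2 alone -3.43 ± 1.06 and -2.38 ± 0.79. Without WT ns 3 and WT ns 8 they were -0.43 ± 0.85 and -0.51 ± 0.54. Those 2 samples had summed neutrophil markers of 16943 and 15765 CPM against 319.8 to 3474 CPM in the other 4 WT ns samples, and summed monocyte markers of 1766 and 1545 CPM against 126.0 to 471.2 CPM. The part of either cell type in these differences beyond that was not tested. In KO ns the sums ran from 283.8 to 9948 CPM. Mmp14 was at -0.66 ± 0.36 at ns, Plaur at -0.73 ± 0.39 and Adamts1 at -0.67 ± 0.37. Timp1, fitted without the filter, was at 0.58 ± 0.78 at ns and -0.72 ± 0.48 at LPS. At LPS Mmp9 was at -0.47 ± 0.75, Adam8 at -0.60 ± 0.51, Plaur at -0.61 ± 0.39, Mmp14 at -0.28 ± 0.36 and Adamts1 at -0.05 ± 0.37. Adam10, Adam17 and Plau differed by at most 0.30 in size at ns or LPS, with intervals such as -0.51 to 0.44 for Plau at ns. Interaction intervals were wide, -0.61 to 1.38 for Mmp14 and -0.34 to 1.02 for Plau. These do not show that the genotypes respond alike.

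Timp2 was the member whose KO level lay farthest above WT at LPS. There the difference was 0.48 ± 0.27 (interval -0.05 to 1.01, adjusted p = 0.88, edgeR), and at ns 0.09 ± 0.27 (adjusted p = 0.871). Without the 6 libraries that stand apart it was 0.51 ± 0.10 at LPS (adjusted p = 0.0271, edgeR) and 0.33 ± 0.10 at ns (adjusted p = 0.195), with 0.282% and 0.364% of all genes called in those contrasts. The samples at LPS were then 185.5 to 278.8 CPM in WT (n = 5) and 278.3 to 345.0 CPM in KO (n = 7), so the groups overlapped through WT LPS 5 and KO LPS 7 alone. In set 1 alone the difference was 0.65 ± 0.12 (adjusted p = 0.0557, edgeR). With the replicate block and WT LPS 8 and 9 kept apart it was 0.75 ± 0.17 (adjusted p = 0.0448, edgeR), and without the libraries of number 3 it was 0.22 ± 0.31 (adjusted p = 0.851). Leaving out the 6 libraries was chosen after the values were seen.

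In the sex experiment no member was called in any contrast. The genes called were 0.00946% in males, 0.164% in females, 0.432% averaged over the sexes, 0.861% between the sexes and 0% in the sex-by-genotype interaction (879 genes at an unadjusted p under 0.05). The members that differed most between WT and KO did so through 2 WT animals. Mmp9 was at 69.99, 76.14, 234.8 and 1103 CPM in the 4 male WT animals and at 72.58, 82.98, 98.26, 118.2 and 129.7 CPM in the 5 male KO animals. In females it was at 27.04, 54.25, 82.17 and 857.8 CPM in WT and at 44.69, 57.33, 64.79, 90.5 and 158.9 CPM in KO. Male WT 5 and female WT 2 stood above all others, and the groups otherwise overlapped. In males alone Mmp9 was at -1.89 ± 0.97, Adam8 at -1.92 ± 0.88 and Plaur at -1.66 ± 0.74, and in females at -1.62 ± 0.96, -1.18 ± 0.87 and -0.43 ± 0.74. Averaged over the sexes, Mmp9 was at -1.75 ± 0.68 (interval -3.09 to -0.41, adjusted p = 0.496, edgeR), Adam8 at -1.55 ± 0.62 (adjusted p = 0.499) and Plaur at -1.04 ± 0.52 (adjusted p = 0.588). Without those 2 animals, a choice made after the values were seen, the same differences were 0.13 ± 0.36, 0.20 ± 0.28 and 0.32 ± 0.22. No member was called then either, against 0.0125% of all genes in males, 0.602% in females and 0.969% averaged.

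**Figure D4:**
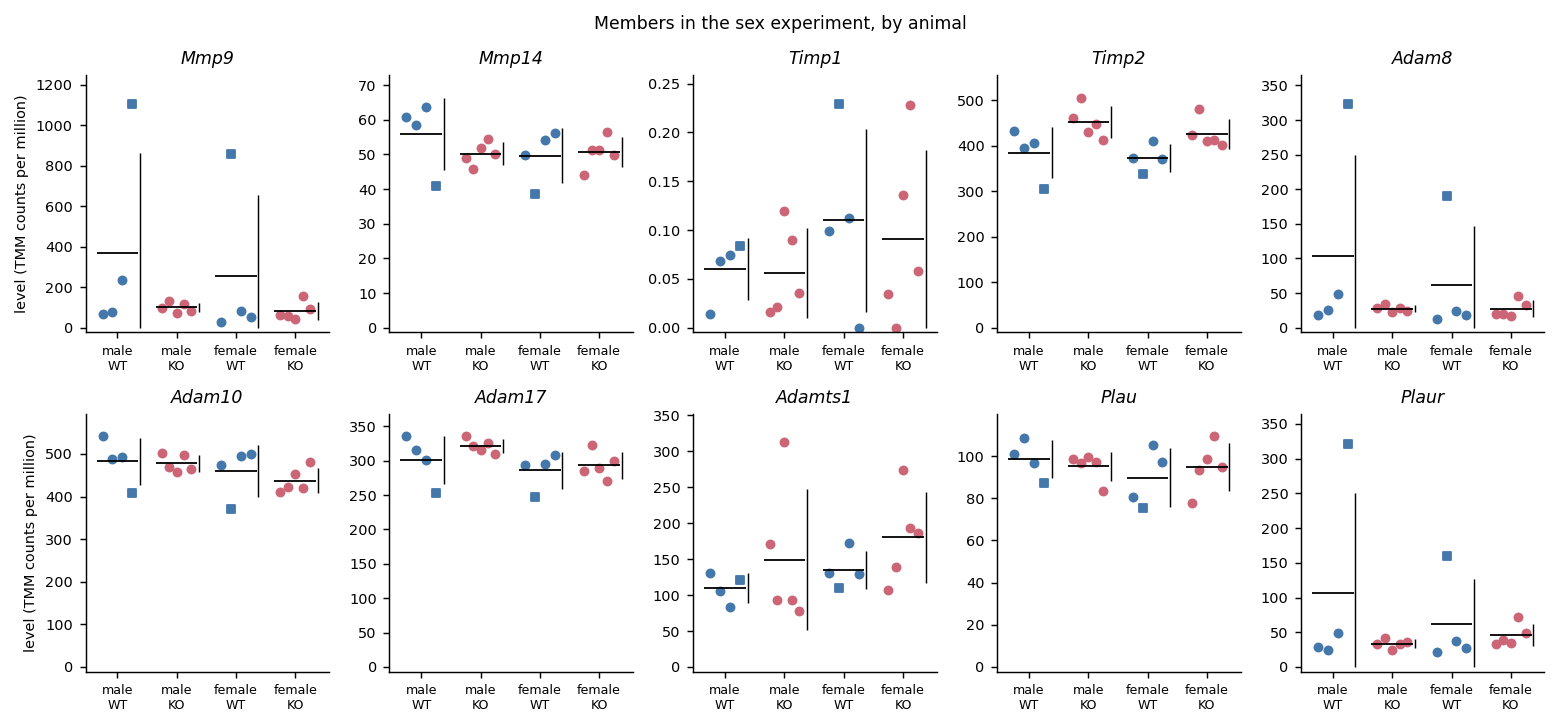
Level of the 10 members (y, TMM-scaled CPM, linear axis from 0) in each animal of the sex experiment by labelled group (x), blue for WT and red for KO, squares for male WT 5 and female WT 2, horizontal lines for the group means of all animals and vertical lines for 1 SD (drawn down to 0 at most). Mmp9 of these 2 animals is at 1103 and 857.8 CPM, and no other animal passes 234.8.

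Adam8 followed the same animals. It was at 18.18, 25.32, 48.27 and 322.6 CPM in male WT and at 22.54, 23.52, 27.84, 28.06 and 34.9 CPM in male KO. In females it was at 12.05, 18.87, 24.38 and 190.3 CPM in WT and at 17.45, 19.53, 19.65, 32.83 and 46.39 CPM in KO. The span of Adam8 overlaps Gm16201 on the other strand, which held 489 to 2713 counts per animal, and the strand setting is not given. Plaur was at 24.62, 28.11, 49.57 and 321.4 CPM in male WT, and at 24.94, 32.57, 33.17, 36.27 and 41.31 CPM in male KO. Its female values were 20.9, 27.02, 38.07 and 159.6 CPM in WT and 33.14, 34.93, 39.57, 48.53 and 71.43 CPM in KO. In each of these 3 genes the highest value belonged to male WT 5 and the next to female WT 2.

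The summed level of 9 neutrophil markers was 47241 CPM in male WT 5 and 28176 CPM in female WT 2, against 706.5 to 7501 CPM in the other 16 animals. The 7 monocyte markers moved with them, at 3590 and 2074 CPM against 153.1 to 670.2 CPM in the other 16. The summed microglial markers of these 2 animals, 25647 and 25972 CPM, lay below the 29904 CPM of the lowest other animal. S100a8, a defining neutrophil gene, ran from 185.8 to 12130 CPM, and no marker was at 0 in all animals of a group. Over those 16 animals, which do not include male WT 5 and female WT 2, log2 Mmp9 rose with the log2 marker sum (Pearson r = 0.97, Spearman rho = 0.95, permutation p = 1e-05, adjusted p = 5e-05 over 10 members, the smallest p the 100000 draws can give being 1e-05). Adam8 gave r = 0.95 and rho = 0.90 (permutation adjusted p = 5e-05) and Plaur r = 0.80 and rho = 0.71 (permutation adjusted p = 0.00117). Leaving out the 2 animals farthest from the median marker sum left r at 0.93, 0.90 and 0.74. Within the 10 KO animals alone r was 0.97 for Mmp9 (permutation adjusted p = 0.0001), 0.94 for Adam8 (0.00035) and 0.65 for Plaur (adjusted p = 0.143). Timp2 gave r = 0.35 (permutation adjusted p = 0.466), and the other 6 members had r between -0.23 and 0.29. The part of neutrophils or monocytes in the genotype differences was not tested, beyond the values without male WT 5 and female WT 2.

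**Figure D5:**
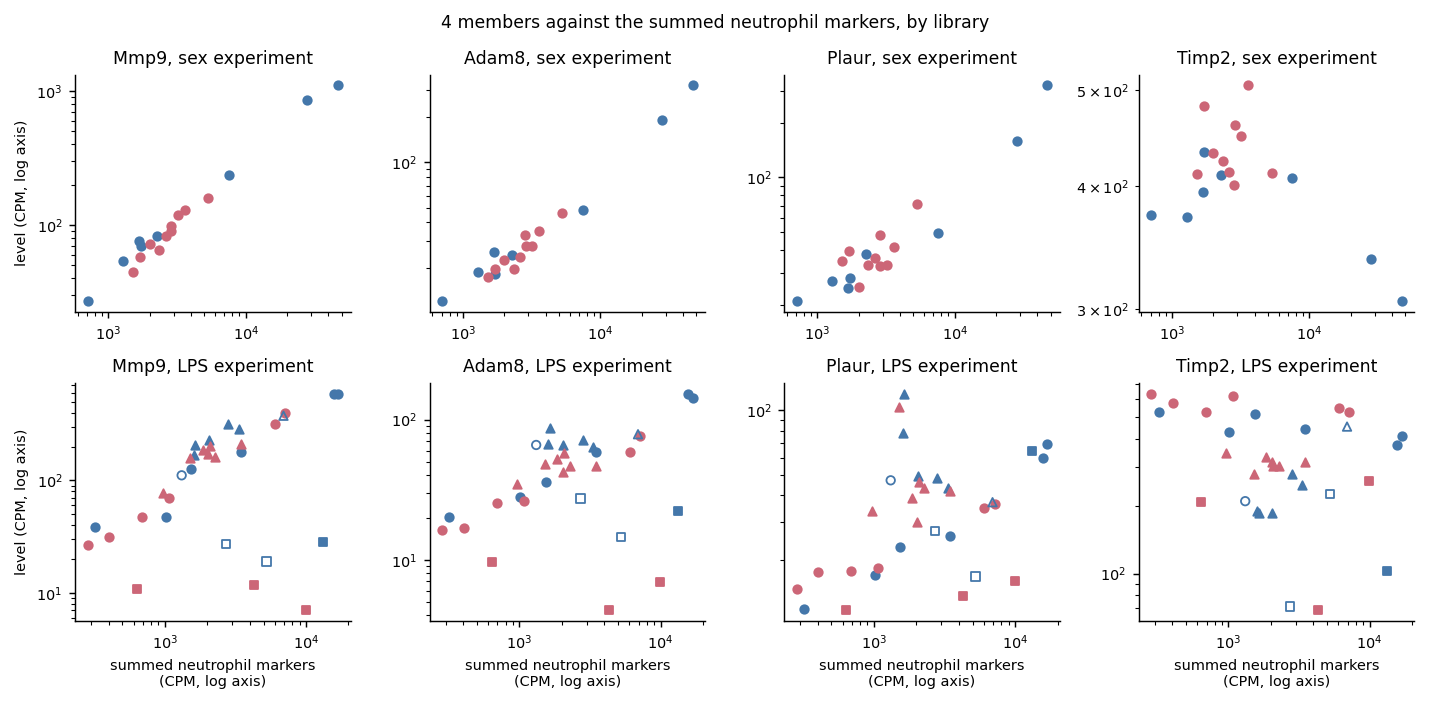
Level of Mmp9, Adam8, Plaur and Timp2 (y, CPM, log axis) against the summed level of 9 neutrophil markers (x, CPM, log axis) in each animal of the sex experiment (top) and each sample of the LPS experiment (bottom). Blue is WT and red KO; circles are sex-experiment or ns samples, triangles LPS samples, squares the 6 libraries that stand apart and open symbols the WT libraries of number 2. Mmp9, Adam8 and Plaur rise with the marker sum in the sex experiment, with male WT 5 at 47241 CPM of markers and 1103 CPM of Mmp9.

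The same members lay high with the marker sum at ns in the LPS experiment outside the 6 libraries. WT ns 3 and WT ns 8 held Mmp9 at 583.7 and 587.5 CPM and Adam8 at 142.7 and 152.6 CPM. KO ns 4 and KO ns 1, with marker sums of 7156 and 6032 CPM, held Mmp9 at 396.8 and 314.6 CPM. In the 6 libraries that stand apart Mmp9 held only 7.057 to 28.07 CPM at sums of 638.8 to 13223 CPM.

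Timp2 in the sex experiment was at 305.6, 394.4, 407.2 and 433.2 CPM in male WT and at 413.0, 431.4, 449.2, 461.2 and 505.7 CPM in male KO. In females it was at 337.1, 371.7, 373.8 and 410.3 CPM in WT and at 401.1, 410.8, 412.2, 424.1 and 482.0 CPM in KO. The groups overlapped within each sex. The difference was 0.23 ± 0.10 in males and 0.19 ± 0.10 in females (edgeR). The difference averaged over the sexes was 0.21 ± 0.07 (interval 0.08 to 0.34, unadjusted p = 0.00516, adjusted p = 0.30, edgeR) and 0.14 ± 0.06 (adjusted p = 0.482) without male WT 5 and female WT 2. Its difference was above 0 in all 24 settings tried and was called in none of them.

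Mmp14, Adam10, Adam17 and Plau varied little between animals. Averaged over the sexes they differed by -0.06 ± 0.08, -0.04 ± 0.07, 0.07 ± 0.06 and 0.02 ± 0.07, with intervals of -0.23 to 0.10, -0.17 to 0.08, -0.05 to 0.18 and -0.13 to 0.16. Without male WT 5 and female WT 2, Mmp14 was at -0.18 ± 0.06 (adjusted p = 0.238, edgeR), Adam10 at -0.12 ± 0.05 and Plau at -0.05 ± 0.07. With all animals in the fit, these 4 members differed within each sex by no more than 0.15 in size. Over the alternatives Mmp14 in males ran from -0.28 to -0.09, Adam10 in females from -0.16 to -0.03 and Plau in females from 0.00 to 0.17, never called. Without male WT 5 and female WT 2, the male KO and male WT levels of Mmp14 did not overlap. How many of all genes part in that way was not taken. Adamts1 was at 0.43 ± 0.27 averaged (adjusted p = 0.715, edgeR), 0.44 ± 0.38 in males and 0.41 ± 0.38 in females. Timp1 held 0 to 30 counts per animal inside a span that Syn1 covers on the other strand with 69 to 662 counts, so its level here is uncertain. Its difference was -0.24 ± 0.66 averaged, -0.18 ± 0.94 in males and -0.30 ± 0.93 in females. The largest sex-by-genotype interaction was in Plaur, at 1.22 ± 1.05 (interval -0.83 to 3.28, adjusted p = 0.999, edgeR). Female animals differed from male ones by no more than 0.40 in size in any member but Timp1, at 0.76 ± 0.67 (adjusted p = 0.636, edgeR).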

How the data were processed

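The deposited files are gene counts from poly(A)-selected RNA sequenced on a NovaSeq, per the labels' protocols. The authors' tools were STAR 2.6.1, featureCounts of Subread, FastQC and DESeq2 with build GRCm39, per the submitters' processing notes, and the strand setting is not given in the sources used here. The table of the sex experiment was counted differently from that of the LPS experiment, so each was fitted alone.

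The filter was edgeR's filterByExpr, which passed 31709 of 50565 genes (sex) and 15857 of 53278 (LPS). TMM factors set the library sizes, and the test was that of edgeR 4.0.16 (R 4.3.3, limma 3.58.1), the robust quasi-likelihood test with Benjamini-Hochberg adjustment over all genes tested, called at an adjusted p under 0.05. The LPS model held the library set as a covariate and the WT libraries of number 2 as groups of their own. Intervals are 95% intervals from a normal approximation to the estimate and its SE. They are somewhat narrower than the degrees of freedom of the test would give. DESeq2 1.42.0, RLE scaling, other filters, a replicate block and left-out libraries were the alternatives. The summed pair was treated as number 4, the library number of WT LPS 8, although WT LPS 9 has a different one. Leaving out number 4 therefore dropped WT LPS 9 as well, and leaving out any other number kept it. Timp1 was tested by exact permutation, and correlations by permutation (scipy 1.17.1). The biological coefficient of variation was 35.3% and 41%. The code was tested on simulated data. The genes named are the 10 members, and of the 6 lists the up to 3 genes with the largest change called in KO, plus any called between genotypes. The members and lists were chosen with earlier results of these data known. Repeat libraries of 6 animals are not analysed here. Of the genes the rule names, 1 is not reported here.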

Additional observations from a re-analysis of the deposited data

Results flagged for a closer look

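Of 80 groups of member levels examined, 18 held a sample set far from the rest of its group. The rule used sets about 1 in 20 apart for independent, normally distributed values. These groups share libraries and their levels need not be normal, so 1 in 20 need not be the rate here. In the sex experiment, male WT 5 was the high sample for Mmp9 (1103 CPM, next 234.8), Adam8 (322.6, next 48.27) and Plaur (321.4, next 49.57). Female WT 2 was the high sample for the same genes, at 857.8 (next 82.17), 190.3 (next 24.38) and 159.6 CPM (next 38.07). These are the animals with the highest neutrophil marker sums. Timp2 was high in female KO 2 at 482.0 CPM (next 424.1), and Plau was low in male KO 5 at 83.26 CPM (next 96.64).

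In the LPS experiment most such values came from KO LPS 5, one of the 6 libraries that stand apart. It was low for Mmp14 (24.58 CPM, next 160.5), Timp2 (69.0, next 278.3) and Adam8 (4.395, next 34.72). It was high for Adam10 (1277 CPM, next 616.9), Adam17 (817.4, next 377.7) and Plau (106.2, next 59.55). WT LPS 7, of the same 6, was low for Adam8 (22.23 CPM, next 63.72) and high for Adam17 (464.5, next 354.2), and KO ns 5 was high for Adam17 (408.2, next 325.5). Plaur was high in KO LPS 7, which is not among the 6, at 103.4 CPM (next 46.05).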

How the results depend on the processing

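Under all alternatives no result of a member that was called turned in direction. Of the members' results under alternatives, 1930 stayed on their side of the threshold, 31 lost a call and 10 gained one. Estimates that were not called did change sign in places, such as Plau between genotypes averaged over the sexes in 7 of 24 alternatives. The members called for LPS in KO numbered 3 without the libraries of number 4, 2 in set 2 only and 3 where a log2 size of 1 or more was also required. In WT they numbered 1 in set 2 only and 0 with every library in the group of its label, where 0% of all genes were called. For the settings without number 4, in set 2 only and with the log2 size, the share of all genes called was not taken. Whether these lower counts differ from the change over all genes was therefore not tested. Between KO and WT at LPS, 1 member (Timp2) was called without the 6 libraries that stand apart, and 1 (Timp2, 0.75 ± 0.17, edgeR adjusted p = 0.0448) with the replicate block and WT LPS 8 and 9 kept apart. The cause of each of these shifts was not tested. Leaving out 1 animal at a time in the sex experiment gave 0 to 0 members called.

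Deviations of same-numbered samples correlated at 0.126 on average over 8 pairs in the sex experiment (-0.0544 to 0.354, other pairs -0.0296) and at 0.196 over 38 pairs in the LPS experiment (-0.226 to 0.789, other pairs 0.0146). Since not every pair was above 0.1, the numbers were not taken as pairing. That rule is strict and does not show that the samples are unpaired. The block changed no call in the sex experiment. In the LPS experiment, the block with WT LPS 8 and 9 kept apart called 7 members for LPS in KO and 6 in WT. The main fit called 6 and 4, and keeping WT LPS 8 and 9 apart without the block also gave 7 and 6. The share of all genes called was not taken for these 2 alternatives, so the added calls are not a result about the members. Timp2 between KO and WT at LPS was called with the block and not without it. A fit of only the groups compared was not run for contrasts that use all 4 groups of the sex experiment. Mmp14 in KO was called in all 17 alternatives, from 2.21 to 2.75, and Adam10 in 12 of 17 in KO and 10 of 17 in WT. Without male WT 5 and female WT 2, Adamts13 (-3.77 ± 0.74 in females) and Adamts16 (-0.58 ± 0.11 averaged) were called between genotypes. Timp1 levels rest on few counts, and depth limits them.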
